A study of Mus musculus with 8 samples.

Results

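GABA-A receptors are chloride channels opened by the transmitter GABA, and the 8 genes described here encode variable subunits of them: 5 alpha subunits (Gabra2, Gabra3, Gabra4, Gabra5 and Gabra6), the delta subunit (Gabrd) and 2 gamma subunits (Gabrg1 and Gabrg3). They were chosen by name, not by their values, from the 30211 genes of the files, and all 8 were found. A list of 11 other subunit genes of the family is used only for comparison. RNA was counted in single nuclei of the mouse hippocampus, 1 library per mouse. There were 3 wild-type mice (WT) and 3 mice in which Gsap, the gene of the γ-secretase activating protein, is deleted (GKO), all aged 7 months. A further mouse of each of 2 groups, aged 6 months, carried the J20 transgene, human APP with the Swedish and Indiana mutations driven by the PDGFB promoter, without (J20;WT) or with the Gsap deletion (J20;GKO). The deletion removes internal exons and was made with CMV-Cre, which acts in the germ line, so that every cell carries it. All mice were kept on a C57BL/6N background.

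Each receptor is a ring of subunits, most often alpha and beta subunits with a gamma or a delta subunit, and the mix sets where the receptor sits and which drugs act on it. Receptors with alpha 2 or alpha 3 and a gamma subunit are found mostly at synapses and bind benzodiazepines at the face between alpha and gamma. Alpha 5 and, above all, delta receptors lie outside synapses, where they sense low ambient GABA and carry a steady current. Alpha 4 pairs with delta in dentate granule cells, and alpha 6 is known from granule cells of the cerebellum. The gamma 1 subunit is known from glia as well as neurons.

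The genes lie in the clusters in which this family is arranged in mammals (GRCm38, GENCODE vM21). On chromosome 5, all on the minus strand, Gabrg1 (70751047 to 70842617), Gabra2 (70957597 to 71095849) and Gabra4 (71569749 to 71658308) follow each other, with 115 kb between the first pair, and Gabra4 overlaps the beta gene Gabrb1, on the other strand, by 196 bp at their starts. On chromosome 7, Gabrg3 (56716465 to 57387188, minus strand) is followed after 20.5 kb by Gabra5 (57407672 to 57510059, minus strand). Gabra3 is on chromosome X (72432681 to 72656848), Gabra6 on chromosome 11 (42306437 to 42321072) and Gabrd on chromosome 4 (155384980 to 155398112), all 3 on the minus strand. Gene lengths ran from 13.1 kb for Gabrd to 671 kb for Gabrg3. Nuclear RNA holds unspliced transcripts and the values below were not divided by length, so levels were compared between cell types and never between genes.

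Promoter windows of 300 bases, 250 before the start of transcription to 50 after it, were available for 7 of the 8 genes from RefSeq (GRCm38.p6); Gabrd had no entry. Shown are the windows of the genes whose patterns the results turn on: the pair that was highest in granule cells, Gabra2 and Gabra4, Gabrg1, whose own highest level was in astrocytes, and Gabrg3, whose window also holds the start of an antisense transcript described with it. They are written 5′ to 3′ on the minus strand. Capitals mark the motifs searched on both strands, a GC box (GGGCGG), an E-box (CAGNTG) and a TATA box (TATAAA), of which the last is in none of these windows.
Gabra2, chr5:71095800-71096099: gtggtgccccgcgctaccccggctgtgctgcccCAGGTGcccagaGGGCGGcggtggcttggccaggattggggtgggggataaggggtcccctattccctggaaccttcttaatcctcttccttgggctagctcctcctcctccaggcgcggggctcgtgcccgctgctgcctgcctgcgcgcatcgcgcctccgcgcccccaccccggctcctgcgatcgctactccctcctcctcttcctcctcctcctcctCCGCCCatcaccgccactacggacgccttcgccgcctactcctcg
Gabra4, chr5:71658259-71658558: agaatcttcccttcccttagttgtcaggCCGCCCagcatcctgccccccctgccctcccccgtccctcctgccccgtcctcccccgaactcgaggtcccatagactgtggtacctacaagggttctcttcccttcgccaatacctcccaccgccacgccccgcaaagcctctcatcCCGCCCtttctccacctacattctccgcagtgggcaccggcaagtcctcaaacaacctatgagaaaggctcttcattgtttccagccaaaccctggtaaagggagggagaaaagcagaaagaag
Gabrg1, chr5:70842568-70842867: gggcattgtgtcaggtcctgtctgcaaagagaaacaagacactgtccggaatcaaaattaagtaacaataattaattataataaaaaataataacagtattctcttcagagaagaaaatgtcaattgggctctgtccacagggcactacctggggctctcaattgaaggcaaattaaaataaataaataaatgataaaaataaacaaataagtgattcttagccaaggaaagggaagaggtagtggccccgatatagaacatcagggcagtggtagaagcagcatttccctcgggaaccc
Gabrg3, chr7:57387166-57387465: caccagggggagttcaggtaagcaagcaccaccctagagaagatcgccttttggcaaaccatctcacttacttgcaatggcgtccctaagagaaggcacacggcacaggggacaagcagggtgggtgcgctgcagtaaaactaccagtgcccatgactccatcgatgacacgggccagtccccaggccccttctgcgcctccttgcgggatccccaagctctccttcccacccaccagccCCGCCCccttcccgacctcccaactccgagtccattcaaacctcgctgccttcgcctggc

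The windows differed most in base composition. That of Gabra2 was 70.0% G or C with 25 CpG dinucleotides and 2 GC boxes, and that of Gabra4 58.7% with 12 CpG and 2 GC boxes. The Gabrg1 window was 38.3% G or C with 3 CpG and none of the motifs searched. Gabrg3 had 61.0%, 13 CpG and 1 GC box. Of all 32851 windows in the table, 35.7% held a GC box, 51.4% an E-box and 13.6% a TATA box, and the median was 7 CpG. The 2 windows of Gabra3 overlap, and the 1 TATA box match in each was the same stretch, read on the opposite strand. A match is only a run of letters, and no binding was measured here.

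The 8 libraries held 33314 barcodes and 21020159 to 43310978 UMIs (unique molecular identifiers, 1 per captured RNA molecule) each. Of these, 32041 nuclei passed the filter on mitochondrial share and gene number, with medians of 4579 to 6438.5 UMIs per nucleus, and 159 barcodes occurred in more than 1 library. Nuclei were clustered without the GABA-A receptor genes and named by marker genes, and 13.3% of them, in clusters that met no name, were left out of the comparisons of types. Further clusters, the largest of 1036 nuclei, were named excitatory neuron but met no subtype. They were counted in excitatory neurons as a whole and in none of the neuron subtypes compared below. Gsap UMIs gave 22.5, 23.0 and 22.3 CPM (the usual counts-per-total scale of sequencing, in which every library is set to the same sum) in WT and 19.8, 21.8 and 22.0 CPM in GKO, and 19.9 CPM in J20;WT and 21.1 CPM in J20;GKO. These 3′ tags need not come from the deleted exons and do not check the labels. Xist, a transcript of the inactive X chromosome of female cells, was at 2135 to 2410 CPM in WT 1, GKO 1 and J20;GKO and at 1.68 to 3.00 CPM in the other 5 libraries. WT 1 and GKO 1 also carry an earlier date than the other 4 mice of their groups, so that date and this difference cannot be told apart among these 6 mice.

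Levels are given in CPM, the UMIs of a gene over all UMIs in the nuclei of a type in a library, as mean ± SD over the 8 libraries. Each subunit had its own order of cell types. Gabra2 and Gabra4 were highest in dentate granule cells, Gabra5 in CA1 and CA3, Gabra3 in Sst interneurons, Gabrd in Pvalb interneurons, Lamp5 interneurons and granule cells, Gabrg1 in astrocytes and Gabrg3 in Lamp5 and Pvalb interneurons. Gabra6 was near 0 in every named type. Over 12 contrasts between types, 44 of 84 tests on the 7 genes that could be tested were called, which asked for an adjusted p under 0.05 with a change of more than 1 on the log2 scale, beside 17.6% of the tests on all genes.

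**Figure D1:**
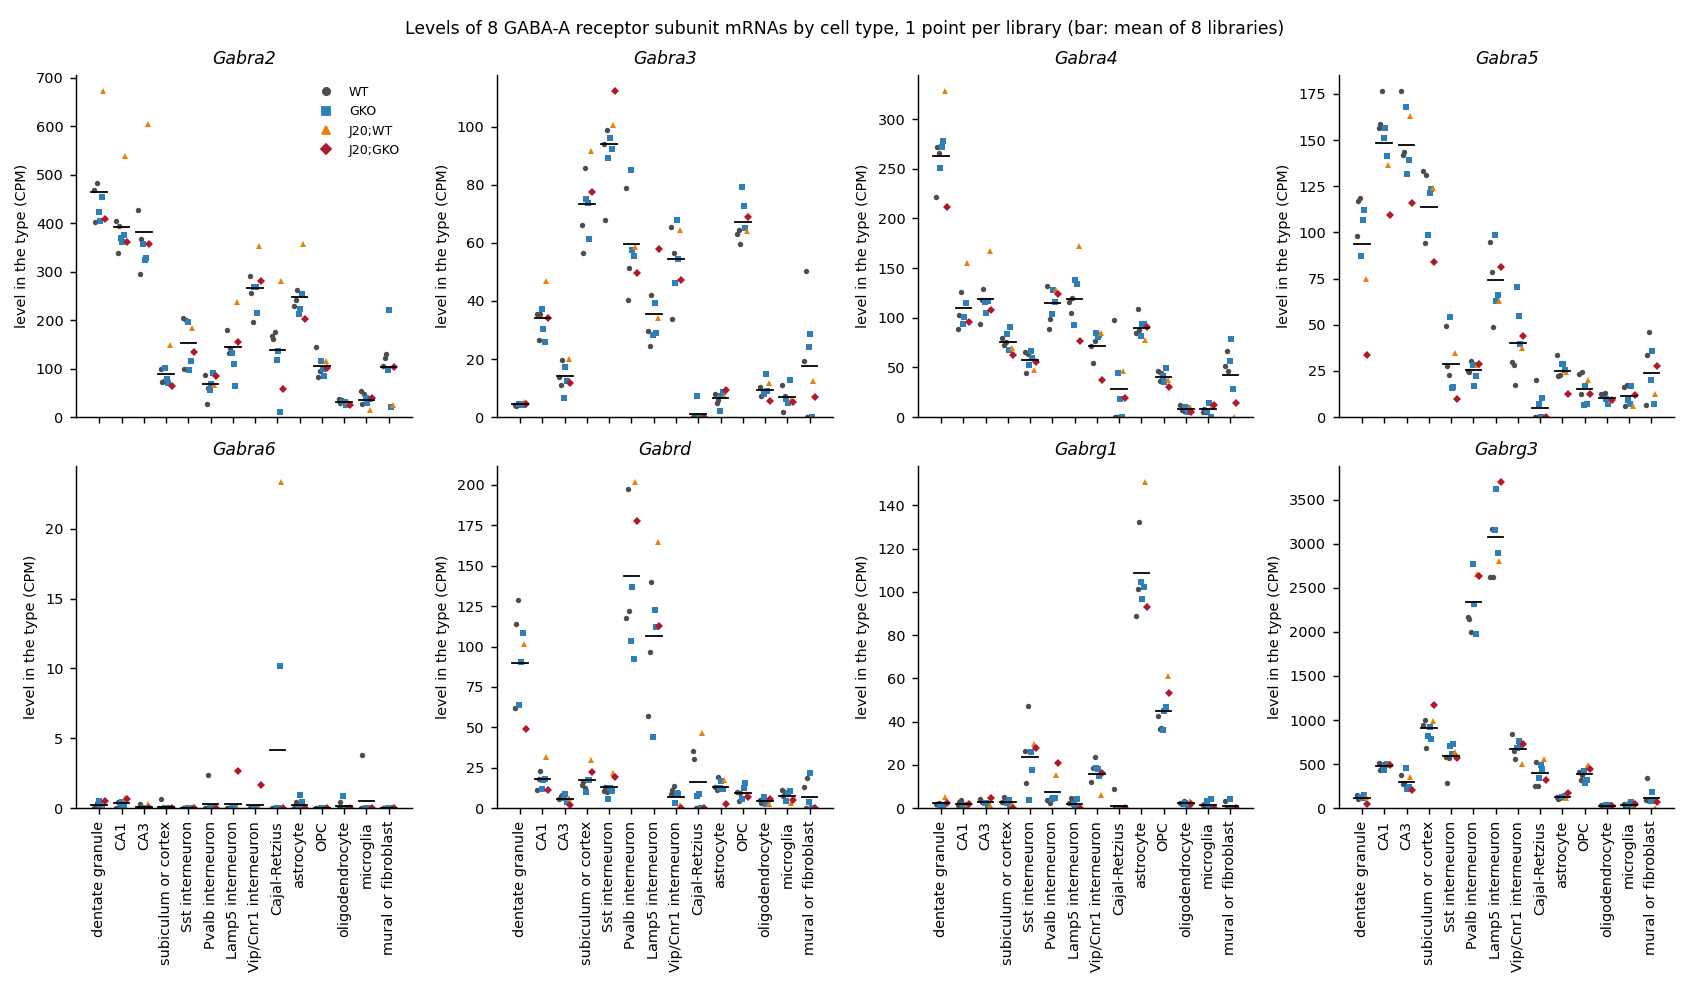
Level of each of the 8 subunit mRNAs (y axis, CPM, its own scale in each panel, from 0) in 14 cell types (x axis). Each point is 1 library, coloured by group, and the bar is the mean of 8 libraries: the tallest columns are dentate granule for Gabra2 and Gabra4, Sst interneuron for Gabra3, astrocyte for Gabrg1 and Lamp5 interneuron for Gabrg3, while in the Gabra6 panel 2 Cajal-Retzius points, each from 1 UMI, stand above 5 CPM.

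Gabra4 and Gabrd were both higher in dentate granule cells than in CA1 and CA3. Gabra4, the alpha subunit that joins delta in granule cells, ran from 211 to 328 CPM in dentate granule nuclei (median 269), from 88.9 to 155 CPM in CA1 (median 102) and from 94.0 to 168 CPM in CA3 (median 117). The lowest granule value was above the highest CA1 and CA3 values. Counted as UMIs per nucleus, Gabra4 was highest in CA3, and in granule cells in only 2 of 8 libraries. In edgeR's quasi-likelihood test with the mouse as a block, Gabra4 was higher in granule cells than in CA1 (log2 fold change 1.21 ± 0.06 SE, adjusted p = 1.045e-11) and than in CA3 (1.09 ± 0.05 SE), and its CA1 and CA3 levels were within 0.11 on the log2 scale. Gabrd, the delta subunit itself, ran from 48.9 to 129 CPM in granule cells (median 95.8), from 11.3 to 31.6 CPM in CA1 (median 17.8) and from 2.02 to 8.45 CPM in CA3 (median 6.13). It thus fell in 2 steps, by 2.30 ± 0.09 SE from granule cells to CA1 and by 1.57 ± 0.16 SE from CA1 to CA3 on the log2 scale (adjusted p = 1.439e-11 and 6.1e-09), and the 3 ranges did not overlap. Gabrd in CA3, at 5.93 ± 2.23 CPM, overlapped with its level in microglia, 7.63 ± 3.07 CPM.

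Gabra2, the alpha subunit known from the axon initial segment, differed little among the same cells. It was at 465 ± 90 CPM in granule cells, 393 ± 62 CPM in CA1 and 382 ± 98 CPM in CA3. It was higher in granule cells than in CA1 in 8 of 8 libraries, by 0.18 ± 0.04 SE on the log2 scale (adjusted p = 0.00161), which is under the size asked for a call. Granule cells hold fewer UMIs per nucleus than CA3 cells, and counted as UMIs per nucleus Gabra2 was highest in CA3, in 0 of 8 libraries in granule cells. In the neurons named subiculum or cortex Gabra2 was at 88.6 ± 27.7 CPM, from 63.2 to 149 CPM, below every CA1 value (338.8 to 539 CPM), and the log2 fold change was -2.28 ± 0.08 SE (adjusted p = 9.195e-17). None of the other subunits set those neurons so far from CA1.

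Gabra5, the alpha subunit of the steady current of pyramidal cells, showed the reverse order. It was at 148 ± 20 CPM in CA1 and 147 ± 20 CPM in CA3, and which of the 2 was higher changed from library to library, with CA1 first in 4 of 8. The CA1 to CA3 difference was 0.02 ± 0.06 SE on the log2 scale. In granule cells it had 93.5 ± 28.5 CPM, from 33.7 to 118 CPM, with the J20;GKO library at the low end and the J20;WT library, at 74.6 CPM, next to it. The differences of granule cells from CA1 (-0.76 ± 0.13 SE) and CA3 (-0.75 ± 0.18 SE) were past the adjusted p but under the size asked for.

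Gabra3 and Gabrg3 were lower in granule cells than in CA1 and CA3. Gabra3 ran only from 3.76 to 5.29 CPM in granule cells, under the 6.84 ± 3.49 CPM of microglia, from 26.0 to 47.0 CPM in CA1 and from 6.68 to 19.9 CPM in CA3. The granule range lay below both others, with log2 fold changes of -3.00 ± 0.09 SE against CA1 and -1.73 ± 0.15 SE against CA3, and Gabra3 was higher in CA1 than in CA3 by 1.27 ± 0.12 SE (adjusted p = 2.624e-08). It was higher again in the subiculum or cortex neurons, at 73.5 ± 11.9 CPM, by a log2 fold change of 1.00 ± 0.07 SE against CA1, which sits at the size asked for a call. It was 0.91 with neurons clustered more finely and between 0.985 and 0.997 without WT replicate 3, GKO replicate 2, GKO replicate 3 or the J20;GKO library, and the call was then lost. Gabrg3 was at 118 ± 33 CPM in granule cells, 300.1 ± 87.4 CPM in CA3 and 478 ± 32 CPM in CA1. Its granule range, 47.3 to 152 CPM, was below the lowest CA3 value of 208.5 CPM and the lowest CA1 value of 430 CPM, with log2 fold changes of -2.11 ± 0.18 SE against CA1 and -1.40 ± 0.16 SE against CA3.

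**Figure D2:**
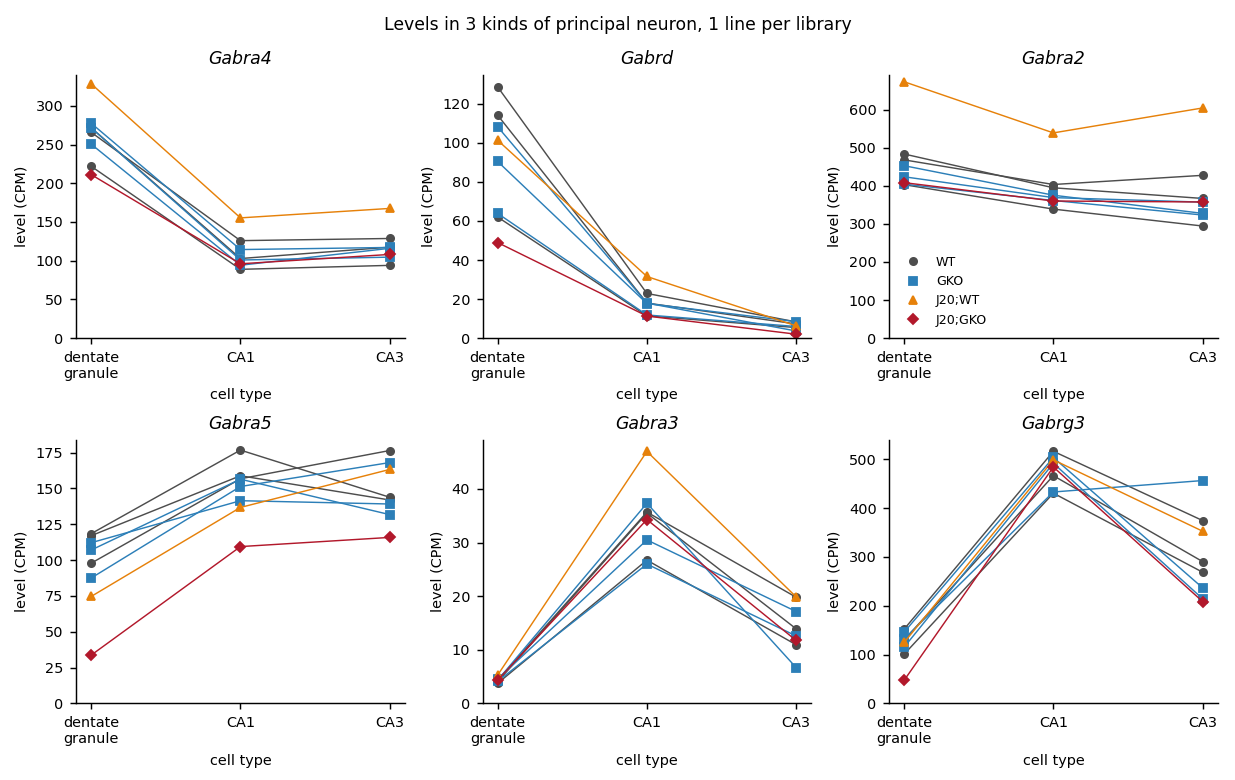
Levels (y axis, CPM, from 0) of 6 subunit mRNAs in dentate granule, CA1 and CA3 nuclei (x axis), with 1 line per library coloured by group. All 8 lines fall from granule cells to CA1 for Gabra4 and Gabrd and rise for Gabra5, Gabra3 and Gabrg3, and the orange J20;WT line lies above the others for Gabra2.

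Counting the 7 tested subunits, 4 were called in granule cells against CA1 (16.8% of all genes were called in that contrast), 4 in granule cells against CA3 (18.4%), 2 in CA1 against CA3 (11.6%) and 2 in subiculum or cortex against CA1 (16.4%). In both granule contrasts 2 members were higher, Gabra4 and Gabrd, and 2 were lower, Gabra3 and Gabrg3. Gabrg1 did not exceed 5.29 CPM in any library of these 4 neuron types. Its granule and CA1 levels, 2.22 ± 1.35 and 1.75 ± 1.05 CPM, overlapped with that of microglia, 1.32 ± 1.64 CPM.

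Inhibitory neurons differed from excitatory neurons in 4 of the 7 members (18% of all genes). Gabra2 and Gabra5 were lower in inhibitory neurons, by log2 fold changes of 1.30 ± 0.07 SE and 1.55 ± 0.14 SE in favour of excitatory neurons. Gabrg3 was higher there (-1.94 ± 0.06 SE, excitatory over inhibitory), at 1519 ± 150 CPM against 373 ± 31 CPM. Gabrg1 was at 13.6 ± 4.3 CPM in inhibitory and 3.97 ± 1.04 CPM in excitatory neurons. In the excitatory neurons without a subtype it ran from 5.02 to 14.1 CPM, overlapping with the 8.18 to 21.4 CPM of inhibitory neurons. The 4 classes of interneuron, each set against the other 3 together, held these subunits in different mixes.

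Pvalb interneurons, which fire fast and contact cell bodies, had the highest Gabrd level of any type, 144 ± 43 CPM, with 92.3 CPM in the lowest and 202 CPM in the highest library. Against the other interneurons the log2 fold change was 2.03 ± 0.11 SE (adjusted p = 1.011e-16). Gabrd was at 7.13 ± 4.89 CPM in Vip/Cnr1 interneurons and 12.99 ± 5.14 CPM in Sst interneurons, so these 2 classes did not reach the lowest Pvalb value in any library. Gabra2 was low in Pvalb interneurons, 67.3 ± 20.7 CPM, with a log2 fold change of -1.46 ± 0.15 SE, and Gabrg1 was lower too (-1.19 ± 0.29 SE). In all, 3 of 7 members were called in Pvalb interneurons (8.2% of all genes). Gabrg1 had 34 UMIs there in the 8 libraries together, and without WT replicate 3 the change was -0.99, short of a call.

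Lamp5 interneurons, a class that includes neurogliaform cells, had 4 of 7 members called (7.95% of all genes). Gabrg3 ran from 2618 to 3701 CPM there and from 1980 to 2772 CPM in Pvalb interneurons, above its highest value in each other type (1166 CPM, in subiculum or cortex). The log2 fold change of Lamp5 against the other interneurons was 1.49 ± 0.06 SE (adjusted p = 5.606e-22), and it was 0.10 with neurons clustered more finely, where the call was lost. For Pvalb interneurons the Gabrg3 change was 0.86 ± 0.06 SE, not called. With the finer clustering it was 1.75 ± 0.09 SE and called, so which class led depended on the clustering. In Lamp5 interneurons Gabra5 was at 74.3 ± 17.2 CPM (1.30 ± 0.12 SE) and Gabrd at 106 ± 40 CPM (1.13 ± 0.16 SE). Gabrd ran there from 44.3 CPM in GKO 1 to 165 CPM in J20;WT. The Gabra5 change was 0.98 with neurons clustered more finely, where its call was lost. Without GKO replicate 3 the Gabrd change was 0.99 and in the 3 WT mice alone 0.82, both under the size asked for. Gabrg1 had 10 UMIs in all Lamp5 nuclei, 2.08 ± 1.95 CPM, and was lower than in the other interneurons (log2 fold change -2.65 ± 0.38 SE).

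Sst interneurons, which contact dendrites, held the highest Gabra3 level, 94.0 ± 12.6 CPM, from 68.0 to 112 CPM, although the log2 fold change against the other interneurons was 0.85 ± 0.09 SE and so not called. They were called for 3 of 7 members (5% of all genes): Gabrd (-2.62 ± 0.13 SE) and Gabrg3 (-1.74 ± 0.17 SE) were lower and Gabrg1 (1.30 ± 0.23 SE) was higher, at 23.8 ± 13.1 CPM. Vip/Cnr1 interneurons were also called for 3 of 7 (6.16% of all genes). There Gabra2 was higher, at 266 ± 48 CPM (1.18 ± 0.09 SE), and Gabrd (-3.31 ± 0.22 SE) and Gabrg3 (-1.41 ± 0.07 SE) were lower. With neurons clustered more finely the Gabrg3 change was -0.93, short of a call.

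**Figure D3:**
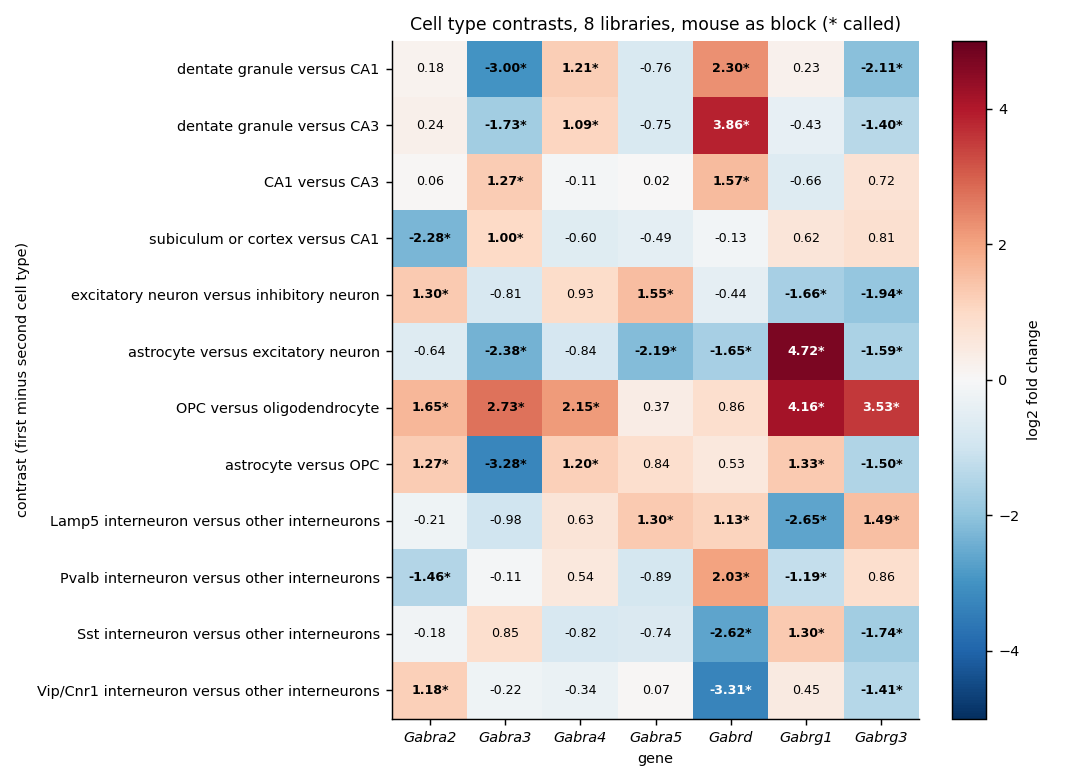
Log2 fold change (colour and printed value) of the 7 testable subunits (columns) in 12 contrasts between cell types (rows, first minus second type), from 8 libraries with the mouse as a block; an asterisk and bold type mark calls. Gabrg3 was called in 9 of 12 contrasts, and the 2 most positive cells are Gabrg1 in astrocytes against excitatory neurons (4.72) and in OPC against oligodendrocytes (4.16).

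Gabrg1 had its highest level of the 14 types in astrocytes. There it ran from 88.8 to 151 CPM (median 102), in oligodendrocyte precursor cells (OPC) from 36.2 to 61.1 CPM (median 43.8), and in mature oligodendrocytes from 0 to 3.52 CPM. No OPC value reached the lowest astrocyte value. Gabrg1 was higher in astrocytes than in excitatory neurons by a log2 fold change of 4.72 ± 0.11 SE (adjusted p = 1.178e-19), than in OPC by 1.33 ± 0.11 SE, and in OPC than in oligodendrocytes by 4.16 ± 0.23 SE. Gabra2 was at 247 ± 48 CPM in astrocytes, and its difference from excitatory neurons (-0.64 ± 0.06 SE) was under the size asked for. Gabra4, at 89.8 ± 9.5 CPM, was likewise not called (-0.84 ± 0.08 SE). With the highest doublet scores left out, its change was -1.19 ± 0.09 SE and it was called as lower in astrocytes.

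Astrocytes and OPC differed in their levels of Gabra3, Gabra2 and Gabra4. Gabra3 was at 67.1 ± 6.3 CPM in OPC, from 59.6 to 79.2 CPM, and at 6.63 ± 2.32 CPM in astrocytes, no higher than in microglia, with a log2 fold change of -3.28 ± 0.17 SE (adjusted p = 4.192e-17). Gabra2 (1.27 ± 0.10 SE) and Gabra4 (1.195 ± 0.110 SE) were higher in astrocytes, but OPC held them too, at means of 105 and 40.3 CPM. Gabrg3 was higher in OPC (-1.50 ± 0.09 SE), at 384 ± 72 against 128 ± 20 CPM. Between OPC and oligodendrocytes 5 of 7 members were called, each higher in OPC (33.6% of all genes), and between astrocytes and OPC 5 of 7 (24.5%). In astrocytes against excitatory neurons it was again 5 of 7 (37.3%), with Gabra3, Gabra5, Gabrd and Gabrg3 lower in astrocytes.

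The astrocytes came from 2 clusters. In the larger, of 2154 nuclei, Gabrg1 was at 135 ± 26 CPM, and in the smaller, of 793 nuclei and led by Myoc and Gfap, at 49.99 ± 16.55 CPM, with no overlap between the 8 values of each. Gabra4 went the other way, with 73.2 ± 9.4 and 126 ± 20 CPM. RNA of neurons moved with this split: the 12 excitatory neuron markers summed to between 346 and 525 CPM in the larger cluster and to between 1298 and 2519 CPM in the smaller, all 12 with UMIs in both, and 35.1% of the smaller cluster's nuclei had doublet scores among the highest 6% of their library. With those nuclei left out, an alternative chosen after the data were seen, 515 nuclei remained in the smaller cluster. Gabrg1 was then still higher in the larger cluster in 7 of 8 libraries, at 137 ± 26 against 71.6 ± 51.1 CPM, but the ranges now overlapped (109 to 188 and 0 to 168 CPM). The excitatory markers still summed to more in the smaller cluster in 8 of 8 libraries, 919 ± 663 against 392 ± 43 CPM. For Gabra4 the mean log2 difference between the clusters shrank from -0.77 to -0.19, and for Gabra2 it turned from -0.36 to 0.15.

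Gabra6, the subunit of cerebellar granule cells, had 133 UMIs in the 32041 nuclei and passed the filter for no contrast of types. In granule cells 9 UMIs gave 0.210 ± 0.238 CPM and in CA1 11 UMIs gave 0.377 ± 0.240 CPM. Sst interneurons and OPC had 0 UMIs, which allows up to 0.482 CPM in Sst interneurons and 0.531 CPM in OPC over all libraries (3 counts, counting error only). Of the 133 UMIs, 79 came from 1 cluster of 626 nuclei that met no name, led by Igfbpl1, Ebf2 and Ano1, at 11.9 ± 12.7 CPM, from 0 to 32.2 CPM. That cluster also held Gabra2 at 453 ± 99 CPM and Gabrg1 at 87.8 ± 28.8 CPM. These 3 leading genes are named after their values were seen, and 9.74% of the cluster's nuclei had doublet scores among the highest of their library.

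Across the 14 types the members formed loose pairs. Gabra2 and Gabra4 had Pearson's r = 0.802 (Spearman's rho 0.644) between mean log2(CPM + 1) values, Gabra4 and Gabra5 0.751 (0.798) and Gabra2 and Gabra5 0.638 (0.653). Gabrd was most like Gabra4 (0.621) and Gabrg3 (0.598). Gabrg1 had no r above 0.335 with another member. These are descriptions over 14 types that share the same 8 libraries. The neighbours Gabrg1 and Gabra2 on chromosome 5 had r = 0.172 and the neighbours Gabrg3 and Gabra5 on chromosome 7 r = 0.377.

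Of 14172 genes compared in the same way, the closest to Gabrg3 was Gm9962 (r = 0.974), an antisense transcript on the plus strand of chromosome 7 (57387272 to 57409941). Its annotated start lies 83 bp from that of Gabrg3, inside the Gabrg3 window printed above, and it overlaps the 3′ end of Gabra5. Gm9962 was at 44.8 ± 9.0 CPM in Pvalb and 29.9 ± 15.4 CPM in Lamp5 interneurons, 22.7 ± 8.1 CPM in subiculum or cortex neurons and 3.21 ± 1.52 CPM in granule cells. It was named here because it led the ranking, and its UMIs were 2451 in all nuclei.

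The genes closest to the others were Sphkap (0.908) for Gabra2, Mast2 (0.896) for Gabra3, Cap2 (0.959) for Gabra4, Dlk2 (0.969) for Gabra5, Rasal2 (0.787) for Gabrd and Fam181b (0.910) for Gabrg1. The next in order were Galnt17 and Fstl4 for Gabra2, Gng4 and 2410018L13Rik for Gabra3, Dab1 and Kcnj3 for Gabra4, and Camkv and Chrm1 for Gabra5. They were Cyp46a1 and Ntf3 for Gabrd, Rgs20 and Wnt7a for Gabrg1, and Srpk2 and Nyap2 for Gabrg3. Chrm1 is a muscarinic acetylcholine receptor, Kcnj3 a subunit of G-protein-gated potassium channels and Wnt7a a secreted signalling protein.

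Most neighbouring types in the order of each member overlapped in their ranges over libraries. Each type was compared with the next lower one by an exact two-sided sign-flip permutation test over 8 libraries, which can give no p below 0.00781, in 104 comparisons. After Benjamini-Hochberg adjustment none reached 0.05, the smallest value being 0.0625. The types had been ranked by the means of the same 8 libraries. Steps without overlap of ranges also stayed at 0.0625, so this test cannot tell small steps from large ones. The ranges of neighbours did not overlap for Gabra4 between granule cells and Lamp5 interneurons, for Gabrd between granule cells and CA1, for Gabrg1 between astrocytes and OPC, and for Gabrg3 between Pvalb interneurons and subiculum or cortex neurons and between CA3 and astrocytes. Gabrd in Pvalb, Lamp5 and granule cells (144, 106 and 89.7 CPM) overlapped throughout, with Pvalb above Lamp5 in 6 of 8 libraries.

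The 11 other GABA-A subunit genes had 20 of 64 tests called over the 12 contrasts, beside 44 of 84 for the members. Between granule cells and CA1 they had 0 of 6 called. Gabrb2, a beta subunit, was higher in granule cells than in CA3 (log2 fold change 1.39 ± 0.06 SE). In astrocytes against excitatory neurons Gabrb1 was higher (1.12 ± 0.07 SE). Of the 6 genes of this list tested there, 2 were called higher, Gabrb1 among them, and 4 lower. Their median log2 fold change was -2.09, and 37.3% of all genes were called in that contrast. In Lamp5 interneurons Gabrb2 was higher than in the others (1.48 ± 0.07 SE).

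Genes that make, carry or sense GABA or hold its receptors were counted in the same 12 contrasts. They were among the genes with which nuclei were clustered, and Gad1, Gad2 and Slc32a1 name the inhibitory neurons, so their counts are descriptions. GABA synthesis and transport had 25 of 82 tests called over the 12 contrasts, receptor scaffold and assembly 28 of 192, GABA-B receptor genes 22 of 58 and chloride transport 5 of 24. These are 30.5%, 14.6%, 37.9% and 20.8%, beside 17.6% of the tests on all genes. Granule cells had more Gad1, a GABA-synthesising enzyme, than CA1 (2.92 ± 0.11 SE) and CA3 (3.15 ± 0.14 SE), and more Plcl1, which binds GABA-A receptors (2.86 ± 0.09 SE against CA1). Astrocytes had more Slc6a11, a GABA transporter, than excitatory neurons (5.07 ± 0.07 SE). Kctd8, an auxiliary GABA-B subunit, was lower in Lamp5 interneurons (-3.77 ± 0.24 SE) and higher in Sst interneurons (1.46 ± 0.08 SE).

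The study asked what loss of Gsap does to hippocampal cells, so the 3 GKO and 3 WT mice were compared within each type. No member was called in any of 14 types: 0 of 73 tests passed by edgeR (adjusted p under 0.05 with a change of more than 0.3 on the log2 scale), beside 0 of 134263 tests of all genes (0%). With the replicate number as a block 40 of 141475 tests of all genes passed, none of them of a member. At an unadjusted p under 0.05 there were 4 of 73 member tests by edgeR (5.48%, against 1.91% of all genes). By DESeq2, which also called 0, there were 2 of 73 (2.74%, against 0.578% of all genes). Nuclei show only mRNA still in or near the nucleus, and a change in protein or in the membrane was not measured.

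None of the members passed in the type where it was highest. Gabra4 in granule cells was at 222, 272 and 266 CPM in WT and 251, 272 and 278 CPM in GKO, a log2 fold change of 0.09 ± 0.10 SE. Gabra2 in granule cells was at 468, 403 and 484 CPM in WT and 424, 404 and 453 CPM in GKO (-0.06 ± 0.11 SE). The ranges of the 2 genotypes overlapped for both. Gabra5 in CA1 was at 157, 159 and 177 CPM in WT and 151, 156 and 141 CPM in GKO (-0.12 ± 0.11 SE, adjusted p near 1). Gabrd in Pvalb interneurons was at 117, 197 and 122 CPM in WT and 104, 137 and 92.3 CPM in GKO (-0.36 ± 0.23 SE, adjusted p near 1). Within the earlier date this was 117 against 104 CPM, and within the later date 197 and 122 against 137 and 92.3 CPM. For the other 3 the changes were 0.12 ± 0.20 SE (Gabra3, Sst), -0.08 ± 0.16 SE (Gabrg1, astrocyte) and 0.24 ± 0.25 SE (Gabrg3, Lamp5).

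The smallest unadjusted p belonged to Gabra5 in Vip/Cnr1 interneurons. It was at 29.8, 28.1 and 17.6 CPM in WT and 70.5, 54.5 and 39.4 CPM in GKO, from 9 to 57 UMIs a library. The log2 fold change was 1.07 ± 0.31 SE with an unadjusted p of 0.00288 and an adjusted p of 0.9996 in edgeR's test across 9451 genes. The other 3 with an unadjusted p under 0.05 were Gabra5 in OPC (-1.01 ± 0.43 SE), Gabrg3 in Sst interneurons (0.56 ± 0.26 SE) and Gabra2 in Lamp5 interneurons (-0.56 ± 0.26 SE).

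**Figure D4:**
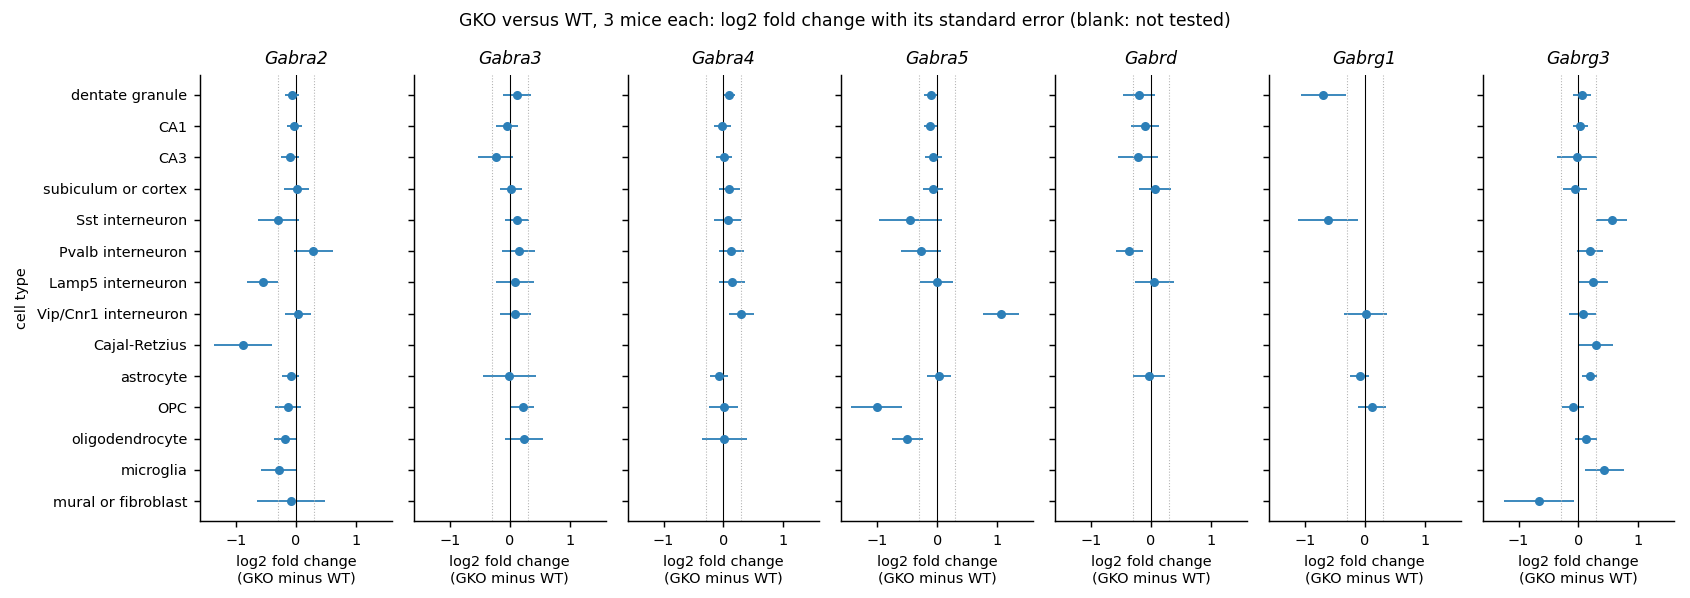
Log2 fold change of GKO over WT (x axis) with its standard error as the horizontal bar, for 7 subunits (panels) in 14 cell types (y axis), 3 mice a group; dotted lines mark 0.3 in either direction. The points farthest from 0 are Gabra5 in Vip/Cnr1 interneurons (1.07) and in OPC (-1.01), and none was called.

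Of 79 pairs of a member and a type with at least 50 UMIs, both mice of the earlier date were below all 4 of the later date in 7 and above them in 11. By type, the share of genes with the first pattern was 6.07% to 23.6% and with the second 7.79% to 14.5%. The pattern was seen in both directions for Gabra4, Gabra5 and Gabrd, and for Gabra2, Gabra3 and Gabrg3 only with the earlier date higher. Gabrd was lower at the earlier date in 3 of 10 types and higher in 1, oligodendrocytes. In granule cells it was at 62.0 CPM in WT 1 and 63.8 CPM in GKO 1, and at 114 and 129 CPM in WT 2 and 3 and 90.4 and 108 CPM in GKO 2 and 3. This pattern was shown by 23.4% of genes in granule cells. The same held for Gabrd in CA1 (21.9% of genes) and Lamp5 interneurons (19.7% of genes), where WT 1 and GKO 1 had 57.3 and 44.3 CPM and the other 4 mice 96.6 to 139.7 CPM. Xist differs between these mice in the same way, as given above.

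The J20;WT and J20;GKO mice were 1 library each, so their difference has no replicate check. They also differ in date and in Xist, which cannot be told apart from the Gsap genotype. Gabra2 in granule cells was at 673 CPM in J20;WT (95% exact Poisson interval 650.4 to 696.5 CPM) and at 408 CPM in J20;GKO (388 to 429 CPM), against 403 to 484 CPM in the 6 other mice. J20;WT was thus the library that stood apart. It lay above those 6 mice for Gabra2 in 8 of 14 types, among them granule cells, CA1 (539 CPM), CA3 (604 CPM) and astrocytes (356 CPM), and J20;GKO lay inside or below their range. In each type between 17.9% and 33.7% of genes with at least 50 UMIs had J20;WT above the 6 mice.

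Gabra4 showed the same split in granule cells, with 328 CPM in J20;WT and 211 CPM in J20;GKO. There J20;WT was above the 6 mice (222 to 278 CPM) and J20;GKO just below them. Gabra5 had another pattern: in granule cells J20;WT had 74.6 CPM (367 UMIs) and J20;GKO 33.7 CPM (124 UMIs), both below the 87.5 to 118 CPM of the 6 mice. In CA1 it was 137 and 109 CPM, again both below the 141 to 177 CPM of the others. Gabrg3 in granule cells was at 125 CPM in J20;WT, within the range of the 6 mice, and at 47.3 CPM in J20;GKO, below it. Of genes with at least 50 UMIs in granule cells, 18.1% had J20;WT below the 6 mice and 23.1% had J20;GKO below them. In CA1 the shares were 17.6% for J20;WT and 16.3% for J20;GKO.

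Set against pairs of mice of 1 genotype, the J20;GKO to J20;WT ratio was wider than in each of the 6 such pairs for 4 of 5 members with at least 50 UMIs in granule cells (34.7% of genes), 4 of 6 in CA1 (26% of genes), 3 of 5 in CA3 (23.8%) and 3 of 4 in astrocytes (28.6%). It was wider for 0 of 4 in Sst and 0 of 4 in Pvalb interneurons (15.8% and 17.1% of genes), 2 of 5 in Lamp5 (20.1%) and 1 of 4 in Vip/Cnr1 interneurons (16.9%), 2 of 6 in subiculum or cortex neurons (22.1%) and 0 of 4 in OPC (22.3%). In oligodendrocytes it was 0 of 1 (24%), and in microglia (23.2% of genes) no member had 50 UMIs. Over all inhibitory neurons it was 1 of 7 (16.5%). Gabra2 was lower in J20;GKO than in J20;WT, with log2 ratios of -0.72 in granule cells, -0.58 in CA1, -0.76 in CA3 and -0.82 in astrocytes, beside at most 0.263, 0.252, 0.538 and 0.253 in size between mice of 1 genotype. Gabrg3 in Lamp5 interneurons went up instead (0.40, from 2805 to 3701 CPM).

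**Figure D5:**
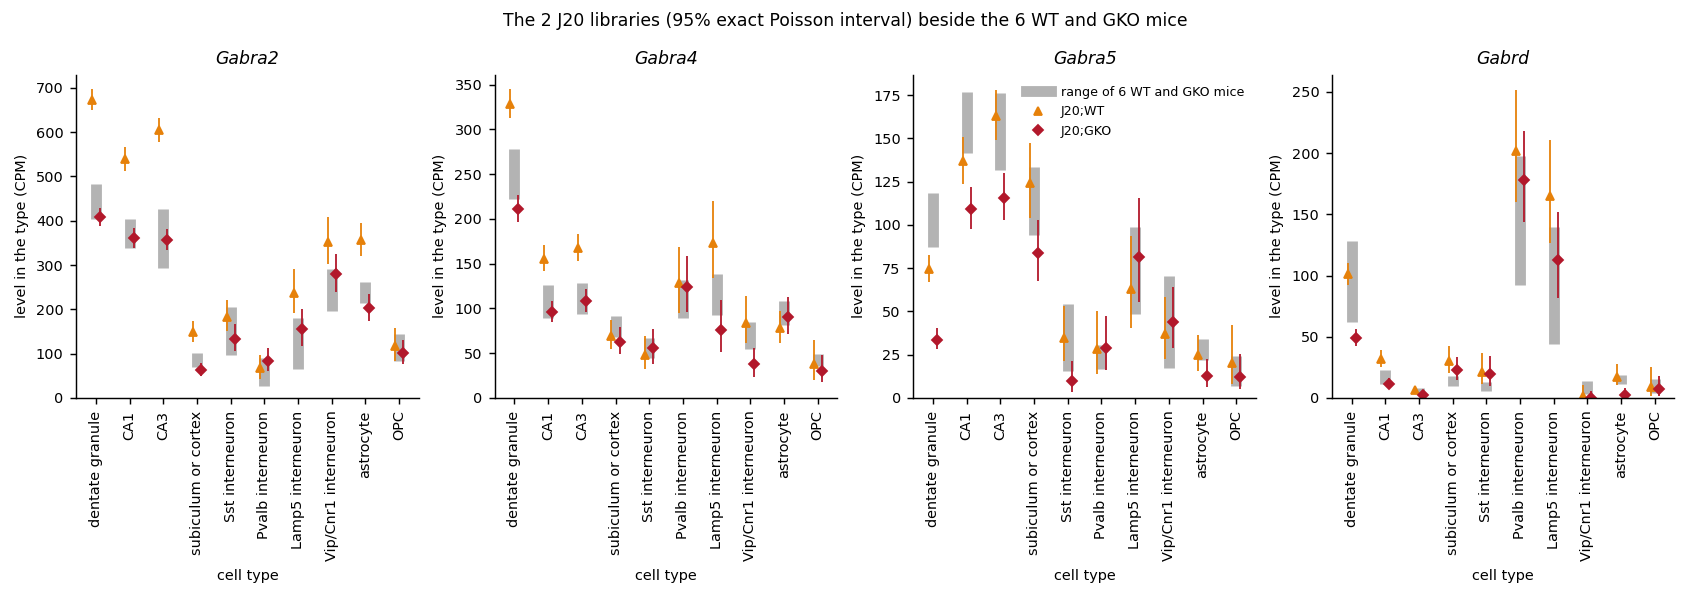
Levels (y axis, CPM, from 0) of Gabra2, Gabra4, Gabra5 and Gabrd in 10 cell types (x axis) in J20;WT (orange triangles) and J20;GKO (red diamonds), each with its 95% exact Poisson interval, which covers counting error only; grey bars span the 6 WT and GKO mice. The J20;WT point is above the grey bar for Gabra2 and Gabra4 in granule cells, CA1 and CA3, and both points are below it for Gabra5 in granule cells and CA1.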

How the data were processed

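Nuclei were isolated from the hippocampus of 8 mice and sequenced as 10X 3′ libraries, 1 per mouse. The deposited counts are whole UMIs per gene and barcode, which the authors made with Cell Ranger 3.0.2 on mm10. Whether intronic reads were counted, and with which strand setting, is not given in the sources used here, so genes that overlap another (Gabra5 with Gm9962, Gabra4 with Gabrb1) may share reads. Some genes of the lists are not reported here. The authors used Seurat 3.0 in R 3.6.2.

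Here nuclei with at most 5% mitochondrial UMIs and 200 to 7500 genes were kept, normalised with sctransform 0.4.2 and integrated and clustered with Seurat 5.3.0 (R 4.3.3) on 2996 genes, GABA-A receptor genes left out, with 30 components, 20 neighbours and a resolution of 0.8, into 37 clusters. Clusters were named from marker lists, and details of the naming rule were completed after the clusters had been seen. Scrublet (scanpy 1.11.5) marked 3.45% to 6.50% of nuclei in 6 libraries but only 1 nucleus in WT 1 and 0 in GKO 1, where it did not work, so doublets stayed in and the 6% highest scores per library were left out as an alternative.

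UMIs were summed per type and library. Types were compared over 8 libraries with the mouse as a block, and 3 GKO with 3 WT mice without a block, by edgeR 4.0.16 (quasi-likelihood test, TMM, its low-count filter, Benjamini-Hochberg adjustment over all genes), with DESeq2 1.42.0 as an alternative. The steps were tested on simulated data. Levels are CPM, with exact Poisson intervals that cover counting error only. Each library is 1 mouse. The deviations of same-numbered WT and GKO mice from their group means had r = 0.576, 0.165 and 0.244, and the replicate number was a block only in an alternative. Other mice of the same date gave 0.252 and 0.323, and mice of different dates -0.43 to -0.318. These values do not tell pairing by number apart from date. The genes named are the 8 members, at most 4 called pathway genes per contrast by size, the 3 genes most like each member, and markers. The members and lists were chosen with earlier results of these data known.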

Additional observations from a re-analysis of the deposited data

Results flagged for a closer look

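For 2 of 48 pairs of a member and a type with at least 50 UMIs in the J20 pair, the GKO and WT mice did not overlap while the J20 pair ran the other way, beside 2.57% of the 76182 such pairs over all genes. The difference between the 2 contrasts was not tested, and the J20 pair is 1 library a group.

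Gabra4 in Vip/Cnr1 interneurons was at 54.4 to 76.2 CPM in WT and 80.3 to 84.9 CPM in GKO, a log2 difference of 0.29 between the means. J20;WT had 84.2 CPM and J20;GKO 37.5 CPM, a log2 ratio of -1.15.

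Gabrg3 in Sst interneurons was at 281 to 581 CPM in WT and 614 to 731 CPM in GKO, a log2 difference of 0.514. WT replicate 2 was the library at 281 CPM. J20;WT had 639 CPM and J20;GKO 565 CPM, a log2 ratio of -0.18.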

How the results depend on the processing

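Of the 44 calls between cell types, 38 were kept under each of 17 alternatives. The other 6 were lost under at least 1, with no called change reversed. Of the other tests, 8 gained a call under at least 1. Among them were Gabra3 in Lamp5 interneurons (-1.39 to -1.01) and Gabrg3 in Pvalb interneurons (1.75 with neurons clustered more finely). Gabra4 in astrocytes against excitatory neurons was another (-1.19 without the highest doublet scores). In subiculum or cortex against CA1 the members called fell from 2 to 1 in the 3 WT mice and without the low-count filter, where Gabra3 was at 0.98 and 0.96. With neurons clustered at a higher resolution, Lamp5 interneurons lost Gabra5 (0.98) and Gabrg3 (0.10), Vip/Cnr1 interneurons Gabrg3 (-0.93) and subiculum or cortex against CA1 Gabra3 (0.91). The cause was not tested. Leaving out 1 library at a time, the 12 contrasts together had 42 to 45 calls, subiculum or cortex against CA1 1 to 2, Pvalb 2 to 3, Lamp5 3 to 5 and OPC against oligodendrocytes 5 to 6.

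Uncalled changes turned for Gabra2 in Sst interneurons (0.046 in the 3 WT mice), Gabra5 in OPC against oligodendrocytes (-0.30 without the highest doublet scores), Gabra5 in Vip/Cnr1 interneurons (-0.77 in the 3 WT mice, -0.11 without GKO replicate 2, range over left-out libraries -0.11 to 0.25), Gabra5 in CA1 against CA3 (-0.018 without WT replicate 3, -0.013 without GKO replicate 2, range -0.018 to 0.055), Gabrd in subiculum or cortex against CA1 (0.0017 at the higher resolution) and Gabrg1 in granule cells against CA1 (-0.077 in the 6 WT and GKO mice, -0.29 in the 3 WT mice, -0.092 at the higher resolution). Between the astrocyte clusters Gabra2 turned to 0.15 and Gabra4 moved to -0.19 without the highest doublet scores.

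The type of highest level depended on the scale. As UMIs per nucleus, Gabra2 was highest in granule cells in 0 libraries, Gabra4 in granule cells in 2 and Gabra5 in CA1 in 0. With nuclei thinned to 1000 UMIs, the share of nuclei with a UMI was highest in Sst interneurons for Gabra3 in 3 libraries, in CA1 for Gabra5 in 2, in Cajal-Retzius cells for Gabra6 in 0 and in Lamp5 interneurons for Gabrg3 in 5.

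For GKO against WT, 0 members were called under every alternative run, the replicate block included (0 of 76 tests). With that block 7 of 76 edgeR tests had an unadjusted p under 0.05 (9.21%, against 4.79% of all genes). All-gene calls were 40 with the replicate block, 11 with the date as a term and 57 without the low-count filter. Leaving out 1 mouse at a time gave Gabra2 in granule cells -0.14 to -0.0072, Gabra3 in Sst interneurons -0.026 to 0.23, Gabra4 in granule cells 0.018 to 0.15, Gabra5 in CA1 -0.15 to -0.073, Gabrd in Pvalb interneurons -0.54 to -0.083, Gabrg1 in astrocytes -0.20 to 0.080 and Gabrg3 in Lamp5 interneurons 0.17 to 0.34. Low counts limit some of these values: Gabrg1 had 10 UMIs in all Lamp5 and 34 in all Pvalb nuclei.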
